A study of Homo sapiens with 16 samples.

Results

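The metallothionein family of LP-1 myeloma cells was followed through 9 metallothionein genes (MT1A, MT1B, MT1E, MT1F, MT1G, MT1H, MT1M, MT1X and MT2A) and MTF1, the gene of their metal-responsive transcription factor. The members were taken as all array probes whose RefSeq accession maps to these symbols, which gave 13 probes for the 10 genes, of 20503 genes with a named probe on the array. LP-1 cells are an established line from a human myeloma, a tumour of plasma cells. LP-1-cIAP2-eGFP cells had been transduced with a lentiviral vector that expresses cIAP2 (BIRC3, a ubiquitin ligase that inhibits apoptosis) together with eGFP, and control (LP-1-eGFP) cells with the vector for eGFP alone. Both lines were sorted by flow cytometry. Cells received 10 nM bortezomib, an inhibitor of the proteasome, or no drug, and RNA was taken after 6 h and 24 h. Each of the 8 conditions had 2 biological replicates, which gave 16 arrays in a single colour. Precision is limited by their number. One sorted line stood for each genotype, so cIAP2 and any other difference between the 2 lines cannot be told apart.

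Metallothioneins are small cysteine-rich proteins that bind zinc and copper, buffer their free concentration in the cell and take up cadmium and other toxic metals. Their genes lie side by side on chromosome 16 and are induced when zinc binds MTF1, which then recognises short metal response elements in their promoters. Glucocorticoids and oxidative stress also induce them. The coding sequences of the family are closely similar, so a probe can pick up transcripts of several members, and the gene named for a signal is uncertain to that extent.

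The promoter sequences of 5 of the 10 members were found in RefSeq (GRCh38.p14), and those of MT2A, MT1B, MT1H and MT1X are shown because these genes differed between the lines. Each is the 250 bases before the annotated gene start, written 5′ to 3′ on the strand of the gene, which is the plus strand for all 4. They lie at chr16:56608334-56608583 (MT2A), chr16:56651636-56651885 (MT1B), chr16:56669564-56669813 (MT1H) and chr16:56682220-56682469 (MT1X). Capitals mark the core of the metal response element, searched as TGCACNC and TGCGCNC on both strands. The 2 patterns differ in 1 base, so no stretch of a strand matches both.
MT2A: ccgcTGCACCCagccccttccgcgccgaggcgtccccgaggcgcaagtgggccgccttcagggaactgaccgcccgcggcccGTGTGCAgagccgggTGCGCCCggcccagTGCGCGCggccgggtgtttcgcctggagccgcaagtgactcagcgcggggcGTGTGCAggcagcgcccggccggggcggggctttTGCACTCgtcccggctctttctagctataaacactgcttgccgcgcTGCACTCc
MT1B: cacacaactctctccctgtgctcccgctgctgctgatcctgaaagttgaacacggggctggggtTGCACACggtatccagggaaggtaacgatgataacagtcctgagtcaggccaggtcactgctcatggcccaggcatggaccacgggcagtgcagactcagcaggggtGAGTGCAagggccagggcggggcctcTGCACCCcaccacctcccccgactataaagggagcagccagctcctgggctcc
MT1H: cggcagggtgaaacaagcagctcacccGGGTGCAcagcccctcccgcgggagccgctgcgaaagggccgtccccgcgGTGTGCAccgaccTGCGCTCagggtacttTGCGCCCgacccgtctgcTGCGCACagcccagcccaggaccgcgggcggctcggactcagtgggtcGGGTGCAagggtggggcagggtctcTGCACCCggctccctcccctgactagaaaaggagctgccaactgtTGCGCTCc
MT1X: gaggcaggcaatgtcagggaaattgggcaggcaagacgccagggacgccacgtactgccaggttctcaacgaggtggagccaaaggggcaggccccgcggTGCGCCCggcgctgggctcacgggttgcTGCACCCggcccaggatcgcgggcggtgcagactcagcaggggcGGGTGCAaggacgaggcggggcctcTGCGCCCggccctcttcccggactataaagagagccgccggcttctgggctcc
The core occurred 7 times in the window of MT2A, 3 times in that of MT1B, 8 times in that of MT1H and 4 times in that of MT1X. Among 35116 promoters of the same length, 24.8% held at least 1 match, 1.58% at least 3 and 0.0313% at least 7. In the windows of MT1B, MT1H and MT1X a match began 53 bases before the start, and in that of MT2A 54 bases before it. MT4, a metallothionein gene outside the 10 members, had 3 matches, and the window of MTF1, on chromosome 1, had none. A match describes these letters alone.

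**Figure D1:**
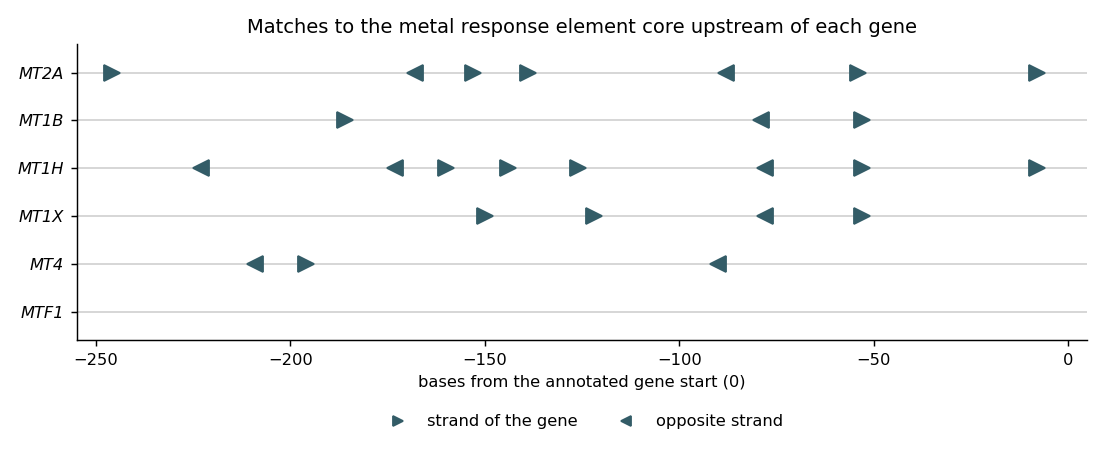
Positions of matches to the metal response element core in the 250 bases before the annotated start of 6 genes. The horizontal axis is the distance from the gene start in bases, each triangle is 1 match and points along its strand. MT2A has 7 matches, MT1H 8, MT1X 4, MT1B and MT4 3 each, and MTF1 none.

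The log2 median signal was 3.18 on 1 array, replicate 1 of the 24 h bortezomib samples of LP-1-cIAP2-eGFP, and between 5.73 and 6.64 on the other 15 arrays, and 35.5% of its spots were well above background by the test of the scanner software, against 49.0% to 71.1% on the others. After normalization the SD over probes of its difference from replicate 2 was 1.48, whereas in the other 7 conditions that SD lay between 0.495 and 0.773. The effect of leaving it out is given beside the metallothionein values that rest on it. The 7 markers of plasma cells that were examined (SDC1, TNFRSF17, PRDM1, XBP1, IRF4, CD38 and MZB1) were well above background on 15 or 16 of the arrays. MS4A1, a B cell gene, was well above background on no array and EPCAM, of epithelium, on 2. CD14 was well above background on 13 arrays, CD3E and COL1A1 on 10 each and HBB on 5. The probe for cIAP2 itself lies, according to the study's methods, in the part of the transcript that the vector lacks, and so it does not test the labels. Its signal in untreated cells differed by -1.57 ± 0.11 on the log2 scale (LP-1-cIAP2-eGFP minus LP-1-eGFP, ± standard error), with means of 12.01 and 13.58.

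Of the 10 members, 8 had a tested main probe, that is, the probe with the highest mean signal, provided that both arrays of some condition had it well above background. MT1G and MT1M were not well above background on any array, and no difference is given for them. MT1A, MT1B, MT1E, MT1H, MT1X, MT2A and MTF1 were well above background on all 16 arrays. MT1F was well above background on all 8 LP-1-eGFP arrays but not on 3 of 8 from LP-1-cIAP2-eGFP cells. Values are log2 of the normalized signal, and signals of different probes are not compared with each other.

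The question of the array experiment was which genes differ with cIAP2. In every condition MT2A was higher in LP-1-cIAP2-eGFP cells, by 2.70-fold on average. MT1B and MT1E were also more than 2-fold higher, MT1H and MT1X were higher by 1.91-fold and 1.85-fold, and MT1F was lower. MT1A and MTF1 did not pass the test. In bulk RNA, more transcript per cell and more cells that hold it cannot be told apart.

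MT2A, the metallothionein 2 gene, had a log2 signal in untreated LP-1-eGFP of 11.74 and 12.08 at 6 h and 11.89 and 12.33 at 24 h. With bortezomib the LP-1-eGFP arrays read 12.07 and 12.34 at 6 h and 12.11 and 12.63 at 24 h. In LP-1-cIAP2-eGFP it was 13.18 and 13.32 in untreated cells at 6 h, 13.48 and 13.73 at 24 h, 13.41 and 13.69 with bortezomib at 6 h and 13.83 and 14.02 with bortezomib at 24 h. The lines did not overlap, and the lowest LP-1-cIAP2-eGFP array was 0.55 above the highest control array. In both lines the lowest mean was in untreated cells at 6 h and the highest with bortezomib at 24 h, with untreated cells at 24 h and bortezomib at 6 h between them, and the 2 arrays of neighbouring conditions overlapped in LP-1-eGFP. Averaged over treatment and time, the line difference was 1.44 ± 0.12 (95% interval 1.17 to 1.70, limma adjusted p = 3.29e-05), and in untreated cells it was 1.42 ± 0.17 (limma adjusted p = 0.0007). It was 1.34 and 1.5 in untreated cells at 6 h and 24 h and 1.35 and 1.56 with bortezomib at the same times, each with a standard error of 0.24.

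The 3-way call, an adjusted p under 0.001 over treatment and time with more than 2-fold between the untreated lines, was met by MT2A and MT1B. These 2 of 8 members were called higher, against 0.608% of the 33716 probes with a test, and none of the 8 was called lower, against 1.76%. In untreated cells alone, with a limit of 2-fold and of 0.05 for the adjusted p, 3 of 8 members (MT2A, MT1B and MT1E) were called higher, against 0.946% of probes, and MT1F was called lower, against 2.49%. An adjusted p under 0.05 without a limit on the fold was reached by 6 of 8 members in both comparisons, against 16.1% of all probes averaged over treatment and time and 7.75% in untreated cells. The median difference of the 8 members was 0.91 averaged over treatment and time, against -0.02 over all tested probes.

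MT1B is a metallothionein 1 isoform of the same cluster. Its log2 signal was 8.82 at the lowest, 9.05 at the median and 9.55 at the highest on the 8 LP-1-eGFP arrays, and 9.93, 10.47 and 11.42 on the 8 LP-1-cIAP2-eGFP arrays, without overlap. The highest value came from the array with the low median signal. The line difference was 1.35 ± 0.17 averaged (limma adjusted p = 0.000473) and 1.15 ± 0.24 in untreated cells (limma adjusted p = 0.0163). The call of MT1B in untreated cells was lost without any 1 of 4 arrays, with an adjusted p of up to 0.0747. These were replicate 1 of LP-1-eGFP and replicate 2 of LP-1-cIAP2-eGFP, at 6 h and at 24 h. The 3-way call of MT1B lay close to its threshold. Leaving out any 1 of 12 arrays raised its adjusted p to between 0.0013 and 0.00227. It was kept only without either array of LP-1-cIAP2-eGFP from the 24 h bortezomib condition, or without replicate 2 of LP-1-eGFP at 24 h, untreated or treated.

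For MT1E, another isoform, the LP-1-eGFP arrays had a log2 signal of 7.40 at the lowest, 7.76 at the median and 8.25 at the highest, and the LP-1-cIAP2-eGFP arrays 8.57, 9.05 and 9.38. The lines did not overlap. The difference was 1.23 ± 0.18 averaged (limma adjusted p = 0.00107), just outside the 3-way threshold, and 1.09 ± 0.25 in untreated cells (limma adjusted p = 0.0268). The call in untreated cells was lost without any 1 of the 4 arrays of untreated cells at 6 h, and among the untreated 24 h arrays without replicate 1 of the control or replicate 2 of LP-1-cIAP2-eGFP, where its adjusted p was up to 0.113. The second probe of MT1E, well above background on 14 arrays, differed by 0.61 ± 0.24 averaged and 0.34 ± 0.34 in untreated cells, and did not pass the test.

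MT1H and MT1X were higher by smaller steps with a narrow spread. MT1H ranged from 9.43 to 10.15 with a median of 9.95 in LP-1-eGFP and from 10.51 to 10.91 with a median of 10.75 in LP-1-cIAP2-eGFP. Its line difference was 0.93 ± 0.11 averaged (limma adjusted p = 0.000339) and 0.91 ± 0.16 in untreated cells (limma adjusted p = 0.00634). MT1X ranged from 10.40 to 11.19 with a median of 10.75 in LP-1-eGFP and from 11.34 to 11.76 with a median of 11.71 in LP-1-cIAP2-eGFP. Its difference was 0.89 ± 0.09 averaged (limma adjusted p = 9.5e-05) and 0.84 ± 0.12 in untreated cells (limma adjusted p = 0.00231). Neither gene had overlapping lines, and neither reached 2-fold averaged or in untreated cells. In single conditions MT1H reached 2.15-fold in untreated cells at 24 h and 2.04-fold with bortezomib at 6 h, and MT1X 2.06-fold in untreated cells at 24 h. MT1H was called in both comparisons without replicate 2 of untreated control cells at 6 h or at 24 h, with a difference of up to 1.04 in untreated cells. The second MT1X probe differed by 0.77 ± 0.14 averaged and 0.89 ± 0.20 in untreated cells, with overlapping lines. The second MT1H probe was well above background on 1 array and was not tested.

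MT1F went the other way. It read 7.14 at the lowest, 7.46 at the median and 7.64 at the highest in LP-1-eGFP, and 2.58, 5.38 and 6.24 in LP-1-cIAP2-eGFP, where its signal was well above background on 5 arrays and not on the other 3. All 8 LP-1-cIAP2-eGFP arrays were below all control arrays. The lowest value, 2.58, was from replicate 2 of untreated cells at 6 h, whose replicate 1 read 6.17. The difference was -2.31 ± 0.44 averaged (limma adjusted p = 0.00557) and -2.79 ± 0.62 in untreated cells (limma adjusted p = 0.0233), the latter called. Of the 4 arrays from untreated cells of the cIAP2 line, 3 had MT1F well above background. The call in untreated cells was lost without any 1 of 6 arrays, namely the 4 untreated LP-1-eGFP arrays and both 24 h arrays of untreated LP-1-cIAP2-eGFP, with an adjusted p of up to 0.0867. Its size also moved with single arrays, from -3.69 without replicate 1 of LP-1-cIAP2-eGFP at 6 h to -1.89 without replicate 2, the array that read 2.58. Without either of these arrays the averaged difference of MT1F was called, at -2.76 and -1.86. With background correction by normexp the averaged difference of MT1F was -1.19.

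MT1A and MTF1 showed no line difference that passed the test. MT1A read 12.48 to 13.09 in LP-1-eGFP and 12.77 to 15.16 in LP-1-cIAP2-eGFP, with overlap, and differed by 0.38 ± 0.25 (95% interval -0.17 to 0.93, limma adjusted p = 0.363). That value depended on the array with the low median signal, which gave the 15.16. Without it the difference of MT1A was 0.13 ± 0.09 (limma adjusted p = 0.348), and without replicate 2 of the same condition 0.63 ± 0.09 (limma adjusted p = 0.000642), with less than 2-fold between the untreated lines. The transcription factor gene MTF1 read 9.41 to 10.05 in LP-1-eGFP and 9.51 to 10.05 in LP-1-cIAP2-eGFP. Its difference was 0.04 ± 0.09 averaged (95% interval -0.15 to 0.24, limma adjusted p = 0.802) and 0.09 ± 0.12 in untreated cells. In all, the 8 LP-1-cIAP2-eGFP arrays lay above the 8 control arrays for 5 of 8 members and below them for 1, against 0.750% and 2.54% of 31215 probes with a value on every array.

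**Figure D2:**
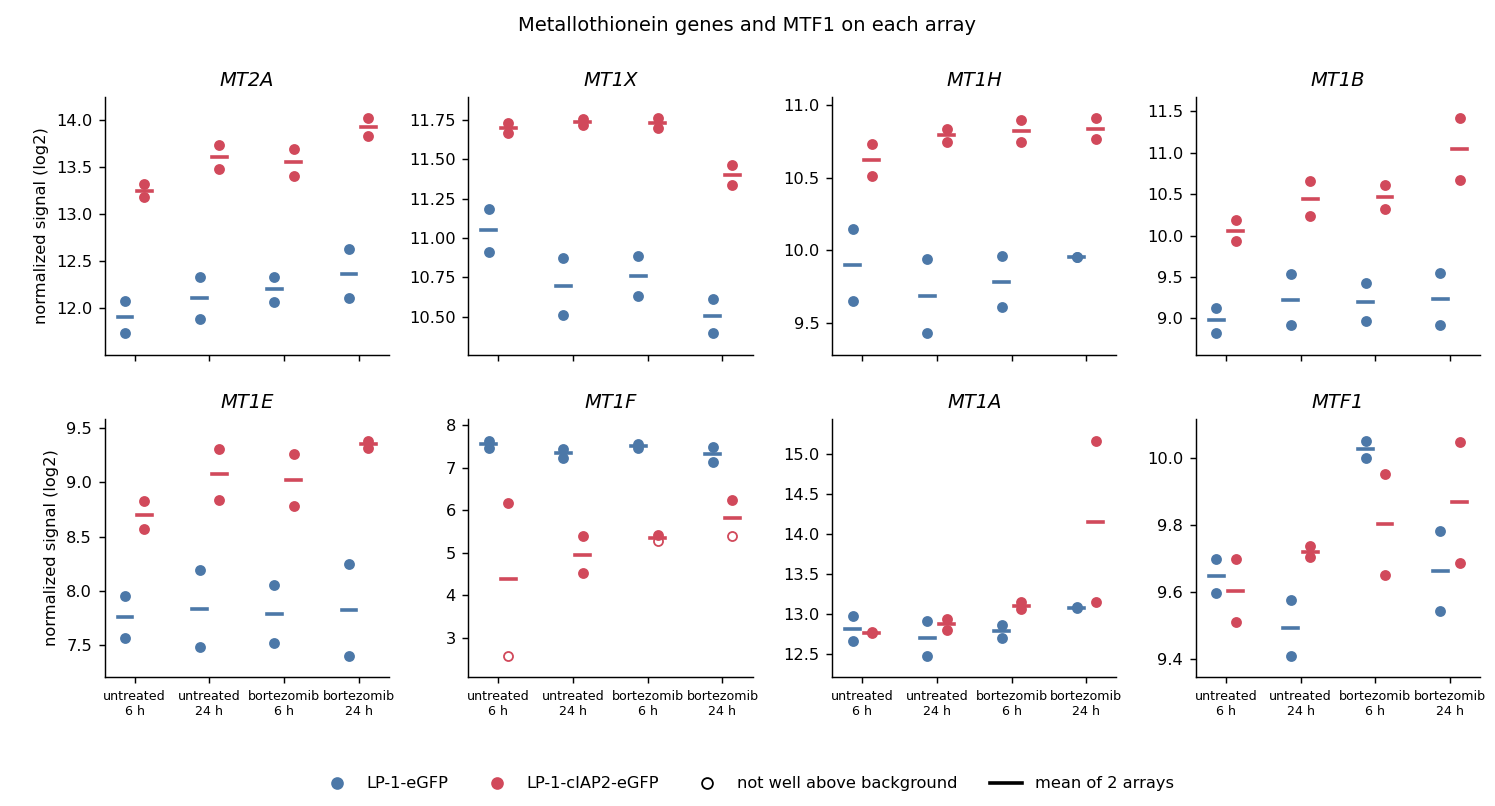
Normalized log2 signal of the main probe of 8 members on each of the 16 arrays (vertical axis, own scale for each gene) by treatment and time (horizontal axis). Blue points are LP-1-eGFP, red points LP-1-cIAP2-eGFP, open points arrays on which the probe was not well above background, and bars the mean of 2 arrays. The lines are separate for MT2A, MT1X, MT1H, MT1B, MT1E and, in the other direction, MT1F, and overlap for MT1A and MTF1.

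The arrays came from 2 slides, each holding both lines, and slide 1 carried 6 of the 8 from LP-1-cIAP2-eGFP. Within slide 1, over untreated cells at 6 h and bortezomib at 24 h, MT2A differed between the lines by 1.46, and within slide 2, over untreated cells at 6 h and 24 h, by 1.60. The corresponding pairs were 1.46 and 1.40 for MT1B, 1.28 and 1.36 for MT1E, 0.62 and 1.11 for MT1H, 0.74 and 0.92 for MT1X and -1.40 and -3.42 for MT1F. The slide 1 values include the array with the low median signal. With bortezomib at 24 h on slide 1, where the mean of that array and replicate 2 is set against 1 control array, MT1B differed by 2.13 and MT1E by 1.95. In untreated cells the only condition with both lines on slide 1 was 6 h, with 1 array of each. Its differences were smaller than the slide 1 averages at 1.10 for MT2A, 0.80 for MT1B, 0.62 for MT1E, 0.36 for MT1H and 0.48 for MT1X. That of MT1F was -1.47, against -1.40. The -3.42 of MT1F on slide 2 was -4.89 at 6 h, from the array that read 2.58 and was not well above background, and -1.96 at 24 h. With the slide as a block, the averaged difference was 1.51 for MT2A (limma adjusted p = 0.000447) and 1.47 for MT1B (limma adjusted p = 0.00284), so that MT1B was no longer called. Averaged over the conditions other than bortezomib at 24 h, a choice made after seeing the data, MT2A differed by 1.40 (limma adjusted p = 0.000139) and MT1B by 1.19 (limma adjusted p = 0.00308, not called).

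The cluster holds further metallothionein genes. MT1L, annotated as a transcribed pseudogene between MT2A and MT1E, was called higher in LP-1-cIAP2-eGFP, with a difference of 1.18 ± 0.12 averaged (limma adjusted p = 0.000147) and 1.12 ± 0.17 in untreated cells. Its 8 LP-1-eGFP arrays read 8.80 to 9.86 and its 8 LP-1-cIAP2-eGFP arrays 9.97 to 10.98, without overlap. MT3, known from brain, MT4, known from squamous epithelium, and the pseudogene MT1IP differed by 0.44 ± 0.49, 0.16 ± 0.31 and -0.23 ± 0.42, and did not pass the test. Without the array of low median signal the differences of MT3, MT4 and MT1IP were -0.09 ± 0.08, -0.12 ± 0.19 and 0.21 ± 0.14. MT1DP was well above background on 1 array and was not tested.

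Of the 5 protein-coding genes on each side of the cluster, 9 were tested and none was called by its main probe in the averaged line difference or in untreated cells. Of all probes, 0.608% were called higher and 1.76% lower averaged, and 0.946% and 2.49% in untreated cells. With 9 genes, a count of none is near these shares. The averaged differences of the 9 genes ran from -0.46 for NLRC5 to 0.63 for SLC12A3, with a median of -0.15. In untreated cells they ran from -0.81 for HERPUD1 (limma adjusted p = 0.00198, under 2-fold) to 0.80 for SLC12A3 (limma adjusted p = 0.406). BBS2, the flanking gene next to MT4, was higher by 0.27 ± 0.06 (limma adjusted p = 0.015), and NUP93, next to MT1X, differed by -0.18 ± 0.10. A second probe of NLRC5, which senses foreign nucleic acid and regulates MHC genes, differed by -1.34 ± 0.19 averaged (limma adjusted p = 0.00103) and was called lower in untreated cells (-1.15 ± 0.27, limma adjusted p = 0.0295). That probe was well above background on all 8 LP-1-eGFP arrays but on 5 of 8 of the cIAP2 line, and on neither of its 24 h bortezomib arrays, so the averaged size is uncertain. A second probe of GNAO1, a G protein subunit gene, was called lower in LP-1-cIAP2-eGFP in both comparisons (limma adjusted p = 0.000591 and 0.00272), whereas its main probe differed by 0.48 ± 0.45 averaged. The second probe was well above background on 6 LP-1-eGFP arrays and on 0 from LP-1-cIAP2-eGFP cells, so it gave only a bound, at least 1.65-fold lower in untreated cells, set by the dimmest spot above background on each array. Averaged over treatment and time, the same bound gave no decrease. The metallothionein genes that were higher were thus interspersed with MT1A and MT1F.

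**Figure D3:**
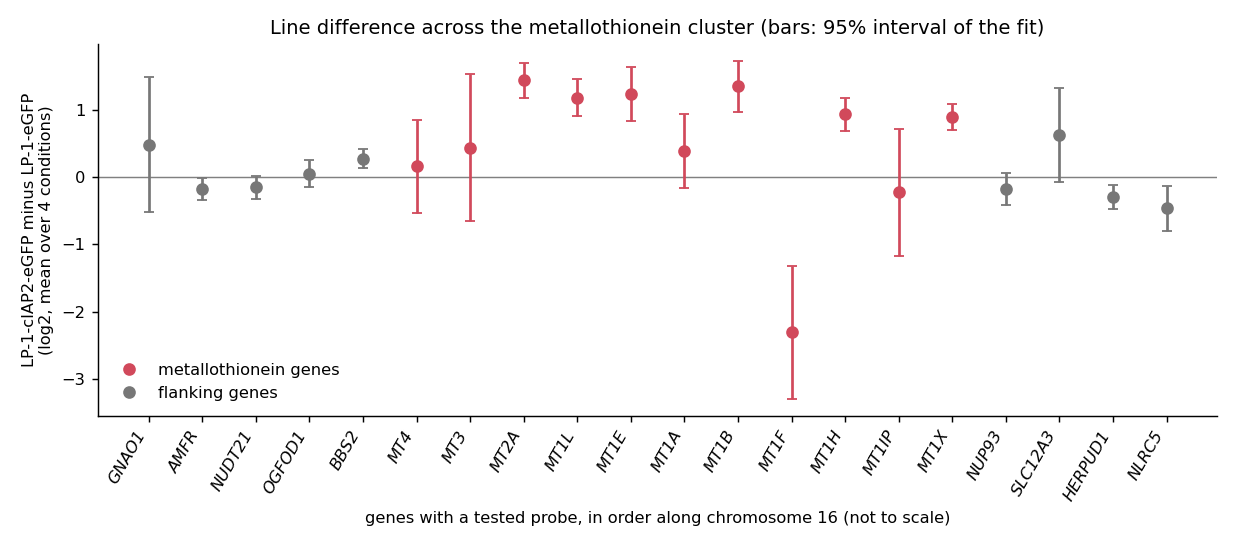
Line difference averaged over treatment and time (vertical axis, log2, LP-1-cIAP2-eGFP minus LP-1-eGFP, with the 95% interval of the fit) for metallothionein genes (red) and flanking genes (grey) in their order along chromosome 16. MT2A, MT1L, MT1E, MT1B, MT1H and MT1X lie above 0, MT1F lies at -2.31, and the flanking genes, by their main probes, lie between -0.46 and 0.63.

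By their main probes, no member was called changed with bortezomib. None of the 8 was called at 6 h in LP-1-eGFP, against 1.12% of probes, nor at 24 h, against 12.0%, and none at 6 h in LP-1-cIAP2-eGFP, against 0.744%, nor at 24 h, against 18.6%. At an unadjusted limma p under 0.05 the count was 0 in the first 3 comparisons and 1, MT1A, at 24 h in LP-1-cIAP2-eGFP, against 11.8%, 31.2%, 10.6% and 40.1% of all probes in the same order. The median effect of the 8 members was -0.002 and 0.09 at 6 h and 24 h in LP-1-eGFP, and for the other line 0.31 and 0.30, beside -0.03, -0.03, 0.00 and -0.16 over all probes. At 24 h in LP-1-cIAP2-eGFP the median of all probes was 0.21 when each array was scaled to its 75th percentile, so small effects there depend on the scaling.

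For MT2A the bortezomib effect was 0.29 at 6 h (95% interval -0.24 to 0.82) and 0.26 at 24 h (95% interval -0.27 to 0.79) in LP-1-eGFP. It was 0.30 at 6 h (95% interval -0.23 to 0.83) and 0.32 at 24 h (95% interval -0.21 to 0.85) in LP-1-cIAP2-eGFP. With every array in the fit, the intervals reach less than 1 on the log2 scale in all 4 comparisons, so a 2-fold change of MT2A lay outside them. Without the array with the low median signal, the MT2A effect at 24 h in LP-1-cIAP2-eGFP was 0.41 ± 0.29. The exclusion of a 2-fold rise in that comparison thus depends on this array. For MTF1 the effects were 0.38, 0.17, 0.20 and 0.15 in the same order, with a lowest adjusted p of 0.446 in the main fit. Over 10 alternatives that left out no array, the MTF1 effect at 6 h in LP-1-eGFP was 0.33 to 0.40. Its limma adjusted p ran from 0.0259 to 0.785 there. The main probe of MT1X was at -0.29, -0.19, 0.03 and -0.33. Its second probe, called lower at 24 h in LP-1-cIAP2-eGFP, changed there by -1.38 ± 0.28 (limma adjusted p = 0.00571), with a log2 signal of up to 10.71 on the untreated arrays and of 8.89 and 9.77 with bortezomib, the lower of which came from the array with the low median signal. Without that array the second MT1X probe changed by -0.93 ± 0.24 (limma adjusted p = 0.0217), under 2-fold and not called.

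MT1A at 24 h in LP-1-cIAP2-eGFP had an effect of 1.28 ± 0.49 (limma adjusted p = 0.0797), which came from a single array. The untreated arrays read 12.80 and 12.94, replicate 2 with bortezomib 13.15, and replicate 1, the array with the low median signal, 15.16. Without that array the effect of MT1A was 0.27 (limma adjusted p = 0.388), and without replicate 2 it was 2.29 (limma adjusted p = 2.95e-05). MT3 stood out on the same array, at 15.23 against 11.01 on replicate 2 and 11.57 and 11.36 on the untreated arrays. On that array MT1IP was not well above background and read 2.51, against 6.04 on replicate 2 and 6.74 and 6.90 untreated, and its called fall of -2.54 ± 0.84 (limma adjusted p = 0.0483) rested on this value, since without the array it was -0.78 ± 0.32 (limma adjusted p = 0.114). The effect of MT3 was 1.66 with the array and -0.45 without it. The part of array quality in these 3 values was not tested.

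The bortezomib effect did not differ between the lines by the test for any of the 8 members. At 6 h 0.00297% of all probes, that is 1 probe, were called for such a difference and at 24 h 0.0712%, and the members' differences ran from -0.18 to 1.02 and from -0.22 to 0.90. The 1.02 belonged to MT1F, whose 6 h effect in LP-1-cIAP2-eGFP ran from -0.83 to 2.77 when single arrays were left out. The 0.90 was that of MT1A and was -0.11 without the array of low median signal, where MT1F moved from 0.89 to 1.32 ± 1.43. At an unadjusted limma p under 0.05 none of the 8 passed at either time, against 2.05% and 8.10% of all probes. For MT2A the difference of the effects was 0.004 at 6 h and 0.06 at 24 h, each with a standard error of 0.335. Between 6 h and 24 h without drug, no member was called in LP-1-eGFP, where 0% of probes were called and 968 had an unadjusted limma p under 0.05, nor in LP-1-cIAP2-eGFP, against 0.0208%, with 1130 at that unadjusted limit. No member had an unadjusted p under 0.05 for time.

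The heat shock and antioxidant genes show what bortezomib did on the same arrays. Of 8 genes driven by HSF1, the transcription factor of the heat shock response, 6 and 7 were called higher at 6 h and 24 h in LP-1-eGFP and 6 and 7 in LP-1-cIAP2-eGFP, with median effects of 3.73, 3.30, 3.30 and 3.97. The counts include HSPA1A, which was well above background on no untreated array and gave only bounds. These were at least 3.93-fold and 1.28-fold at 6 h and 24 h in LP-1-eGFP, and 3.19-fold and 4.32-fold in LP-1-cIAP2-eGFP. The 1.28-fold is under the 2-fold limit, and the medians hold the fitted values of HSPA1A. HSPA6, an inducible Hsp70 chaperone, rose by 9.37 ± 0.31 at 24 h in both lines. At the same time BAG3, a co-chaperone, rose by 4.66 and 4.60 in LP-1-eGFP and LP-1-cIAP2-eGFP, and HSPA1B, another inducible Hsp70, by 5.61 and 4.87. Of 7 genes driven by NRF2, the transcription factor of the antioxidant response, 3 were called higher in each of the 4 comparisons. Of all probes, 1.12%, 12.0%, 0.744% and 18.6% were called in either direction, in the order of the medians above. HMOX1, which degrades haem, rose at 24 h by 1.92 ± 0.16 and 1.43 ± 0.16, and SRXN1, which restores peroxiredoxins, by 1.90 ± 0.20 and 1.32 ± 0.20. NQO1, a quinone reductase, was called lower at 24 h in LP-1-eGFP, by -1.04 ± 0.14. The lines were not called different for any gene of either list, beside 0.608% of all probes called higher and 1.76% called lower averaged. Without the array of low median signal the counts of both lists at 24 h in LP-1-cIAP2-eGFP were the same, 7 and 3, while 15.4% of all probes were called. The median of the heat shock list was then 4.65 and that of the NRF2 list 0.57, against 1.16 with the array, with HMOX1 at 1.45 ± 0.19 and SRXN1 at 1.42 ± 0.23.

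**Figure D4:**
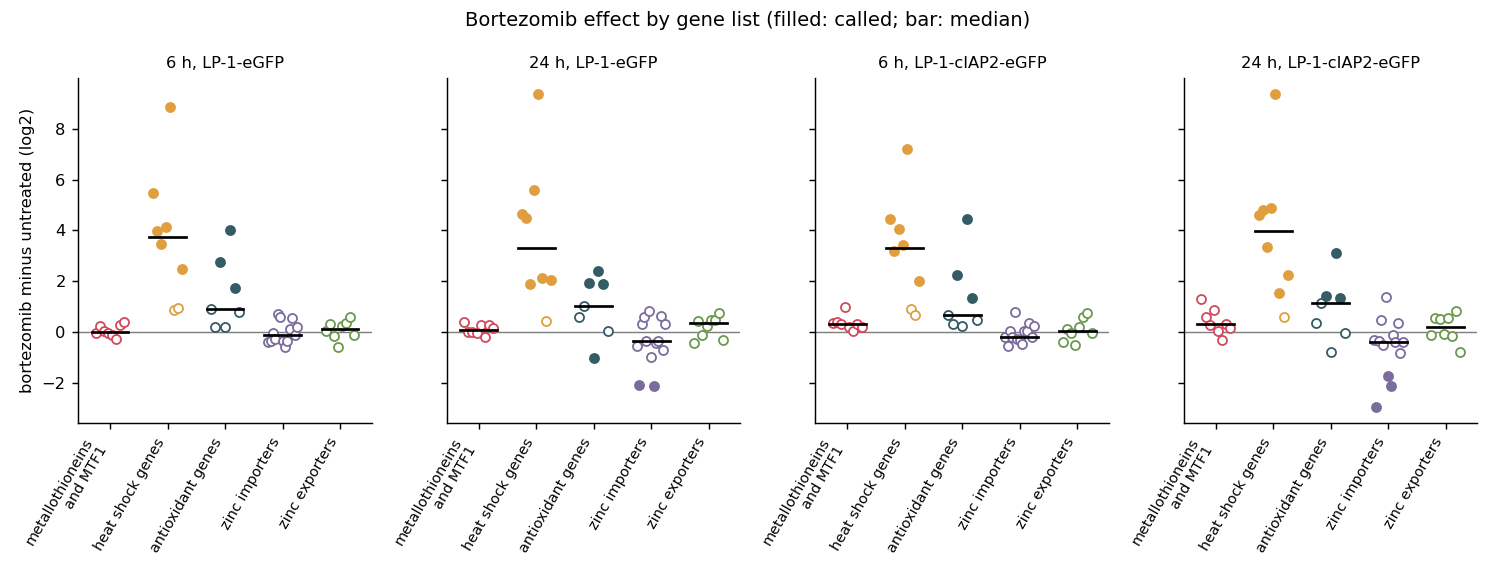
Bortezomib minus untreated (vertical axis, log2) for each gene of 5 lists (horizontal axis), in 4 panels for time and line. Filled points were called, open points were not, and bars are medians. The metallothionein members lie between -0.33 and 1.28 with no filled point, whereas 6 or 7 of the 8 heat shock genes are filled in each panel.

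Zinc and copper transport accompany metallothioneins in metal handling. Of 10 zinc exporters of the SLC30 family 8 were tested, and by their main probes none was called with bortezomib at either time in either line. At 24 h SLC30A5, an exporter of the secretory pathway, was at 0.49 ± 0.15 and 0.55 ± 0.15 in LP-1-eGFP and the cIAP2 line, SLC30A7 at 0.75 ± 0.29 and 0.83 ± 0.29, and SLC30A9 at -0.31 ± 0.19 and -0.80 ± 0.19. Second probes went beyond these values, with that of SLC30A7 called higher in both lines (1.04 ± 0.25 and 1.48 ± 0.25) and that of SLC30A5 called lower in the cIAP2 line, but neither of the treated arrays had it well above background and the bound gave no decrease. SLC30A1, the plasma membrane exporter that is itself a target of MTF1, changed by -0.42 ± 0.17 at 24 h in LP-1-eGFP and by -0.13 ± 0.17 in LP-1-cIAP2-eGFP, and differed between the lines by -0.23 ± 0.08 (limma adjusted p = 0.111). Of 14 zinc importers of the SLC39 family 13 were tested. At 24 h 2 were called lower in LP-1-eGFP, 3 in LP-1-cIAP2-eGFP and none higher in either, beside the 12.0% and 18.6% of all probes called in either direction. SLC39A4, the importer of dietary zinc in the gut, fell by 2.12 ± 0.15 in LP-1-eGFP and by 2.13 ± 0.15 in LP-1-cIAP2-eGFP. SLC39A10 changed by -2.08 ± 0.34 and -2.96 ± 0.34, and SLC39A3 by -0.98 ± 0.35, not called, and -1.73 ± 0.35. Neither gene was well above background on the array of low median signal, and without it they were still called in LP-1-cIAP2-eGFP, at -2.33 ± 0.20 for SLC39A10 and -1.05 ± 0.19 for SLC39A3. The importer median there was -0.38 with the array and -0.03 without it, and that of the exporters 0.21 and -0.004. SLC39A8 was at -0.70 ± 0.14 and -0.82 ± 0.14 by its main probe, under 2-fold, while its second probe was called lower in the cIAP2 line, with a bound of at least 2.13-fold.

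Between the lines, no zinc importer was called, beside 0.608% of all probes called higher and 1.76% called lower averaged. The exporter SLC30A3, named because it was the only called gene of the transporter lists, was lower in LP-1-cIAP2-eGFP by -2.48 ± 0.16 averaged and -2.68 ± 0.23 in untreated cells. SLC39A8 was higher by 0.64 ± 0.07 (limma adjusted p = 0.000192), under 2-fold. Beside the same shares of all probes, none of 8 copper genes was called between the lines. Of these, SLC31A1, the high-affinity copper importer, differed by -0.71 ± 0.06 (limma adjusted p = 5.35e-05) and CCS, the copper chaperone of SOD1, by 0.55 ± 0.065. After 24 h of bortezomib the copper transporter gene SLC31A2 was called higher (1.09 ± 0.18) and the copper-exporting ATPase ATP7B (-1.39 ± 0.36) and the mitochondrial copper chaperone COX17 (-1.03 ± 0.34) lower, all in LP-1-cIAP2-eGFP. Without the array of low median signal neither of the latter was called, with ATP7B at -0.71 ± 0.21 and COX17 at -0.36 ± 0.16. By their main probes, none of the copper genes was called in LP-1-eGFP, a contrast between lines that the test of the difference did not call. Of all probes, 18.6% were called in either direction at 24 h in LP-1-cIAP2-eGFP and 12.0% in LP-1-eGFP. SOD1, the copper-zinc superoxide dismutase, was at 0.88 ± 0.15 and 0.74 ± 0.15 in the control and the cIAP2 line, and ATOX1, a copper chaperone, at -0.54 ± 0.12 and -0.60 ± 0.12, both under 2-fold.

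Of the markers, SDC1 (CD138, a surface proteoglycan of plasma cells) was the only one of 7 plasma cell genes called between the lines, higher by 1.42 ± 0.09 averaged. Of all probes, 0.608% were called higher and 1.76% lower averaged. By condition SDC1 differed by 1.52 and 1.71 in untreated cells at 6 h and 24 h and by 2.03 and 0.40 with bortezomib at the same times, each ± 0.17. Of the 5 tested genes of other cells, HBB, the beta globin gene, was called higher, with a signal well above background on 0 of 8 LP-1-eGFP arrays and 5 of 8 from LP-1-cIAP2-eGFP cells, so that its difference was a bound of at least 2.54-fold averaged. With bortezomib at 24 h, 5 of the 7 plasma cell genes were called lower in the control line and 7 in the cIAP2 line, beside the 12.0% and 18.6% of all probes called in either direction, with medians of -1.70 and -2.09. Without the array of low median signal all 7 were still called lower in the cIAP2 line, with a median of -1.36. The part of such shifts in the metallothionein values was not tested.

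Over the 16 arrays the signals of MT2A, MT1E and MT1B varied together. Pearson's r was 0.973 between MT2A and MT1E, 0.962 between MT2A and MT1B, 0.963 between MT2A and MT1L and 0.956 between MT2A and MT1H. The line difference is part of these values, and the 16 arrays share their slides and normalization. Within the 8 arrays of a line, r between MT2A and MT1E was 0.800 for LP-1-eGFP and 0.938 for LP-1-cIAP2-eGFP, whereas between MT2A and MT1X it was -0.06 and -0.68. The 2 probes of MT1E correlated with r of 0.448, or 0.454 within the control line and -0.38 within the cIAP2 line, and the second MT1E probe with the main MT1X probe with r of 0.728, or 0.862 and 0.959 within the lines.

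Outside the family, the genes whose pattern was most like that of MT2A over the 16 arrays were LAX1, with r of 0.965, PARP8 (0.964), WDR33 (0.962), DOCK5 (0.958) and DSE (0.953), among 4377 genes well above background on every array and with enough spread to compare. They were chosen by r over both lines, and most of the spread of MT2A lay between the lines. A higher signal in LP-1-cIAP2-eGFP therefore follows from the choice and is no separate result. Its size was 2.78 for LAX1 and 0.81 for WDR33 at the ends of the range. Within the lines r with MT2A was lower, between 0.566 for DOCK5 and 0.881 for DSE in LP-1-eGFP and between 0.635 for LAX1 and 0.789 for DSE in LP-1-cIAP2-eGFP.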

How the data were processed

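RNA of the 16 samples had been hybridized to Agilent 1-colour arrays. The deposited intensity values were made by the authors with Agilent Feature Extraction 10.7.3.1, which corrects the background of each spot, and were not normalized between arrays. The authors also deposited log2 values, quantile normalized in GeneSpring, in which each probe is centred on its median. Here each column correlated best with its own array (r of at least 0.9977). Spots flagged as outliers were left out, replicate spots were averaged as log2 values, and arrays were quantile normalized with limma 3.58.1 in R 4.3.3. The 33731 probes tested were those well above background on the 2 arrays of any condition. A mean was fitted per condition (8), with variances moderated over 1.61 prior degrees of freedom and Benjamini-Hochberg adjustment over all probes. The procedure was tested on simulated data. Members, lists and tests were chosen with earlier results of these data known. Named genes are the members, other metallothionein genes, the 5 flanking genes on each side, up to 3 genes of each list with the smallest adjusted p for bortezomib at 24 h, and the 5 genes most alike to MT2A. SLC30A1, SLC31A1, SLC39A3, CCS, ATP7B, COX17, SLC30A3, SDC1, HBB and HSPA1A were named after their values were seen. Symbols came from RefSeq accessions (GRCh38.p14). Alternatives changed the scaling, background correction, filter, values, blocks, weights, variance model, probe averaging or test, or left out each array.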

Additional observations from a re-analysis of the deposited data

How the results depend on the processing

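MT2A stayed called between the lines under every alternative run and without any 1 array. The count of members called in the averaged line difference, 2, was 1 with no filter on signal, with the slide as a block, with array weights and, an alternative added after seeing the data, over the conditions other than bortezomib at 24 h, because MT1B was lost. It was 4 in the methods' 2-group comparison, where 1194 of 33731 probes (3.54%) passed and 1108 after Benjamini-Hochberg adjustment, and 1 to 3 without any 1 array. The count in untreated cells, 4, was 1 to 4 without any 1 array. It was 3 with normexp, with no filter on signal and with probes averaged, because MT1E was lost (adjusted p = 0.0435 at 0.861, under 2-fold, 0.0527 and 0.189), and 3 with probes well above background on all arrays, which leaves out MT1F. The counts of 0 for bortezomib became 1 for MT1A at 24 h in LP-1-cIAP2-eGFP when each array had to have the probe well above background, and were 0 to 1 without any 1 array there, at 6 h in LP-1-cIAP2-eGFP and for the difference of the effects at 24 h. Over all probes the replicate numbers paired the samples weakly at most: over 28 pairs of conditions, r ran from -0.113 to 0.236. It was over 0.1 in 7 pairs and under -0.1 in 1. With the replicate number as a block, 3 members were called in the averaged line difference (MT2A, MT1B and MT1E) and 4 in untreated cells.

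Small bortezomib effects changed sign with the processing, and the cause was not tested. With 75th percentile scaling they were 0.043 for MT1A at 6 h and -0.007 for MT1B, 0.067 for MT1E and 0.075 for MT1F at 24 h in LP-1-eGFP, and -0.122 for MT1H at 24 h in LP-1-cIAP2-eGFP. With normexp they were -0.009 for MT1E and 0.020 for MT1F at 6 h and -0.021 for MT1B and 0.063 for MT1E at 24 h in LP-1-eGFP, and -0.157 for MT1E and -0.176 for MT2A at 24 h in LP-1-cIAP2-eGFP. MT1B at 24 h in LP-1-eGFP was -0.033 with the authors' values. With the slide as a block, MT1E and MT1F at 6 h were -0.121 and 0.272 and MT1E at 24 h 0.140 in LP-1-eGFP. With probes averaged, MT1E was -0.402 at 6 h in LP-1-eGFP. For LP-1-cIAP2-eGFP, MT1X at 6 h was -0.072 and MT1E at 24 h -0.416. The line difference of MTF1 without the 24 h bortezomib conditions was -0.013. Without any 1 array, effects at 6 h in LP-1-eGFP were -0.187 to 0.125 (MT1A), -0.007 to 0.450 (MT1B), -0.240 to 0.294 (MT1E), -0.136 to 0.041 (MT1F) and -0.360 to 0.131 (MT1H), and at 24 h -0.303 to 0.328 (MT1B), -0.432 to 0.415 (MT1E) and -0.198 to 0.146 (MT1F). In LP-1-cIAP2-eGFP they were -0.828 to 2.766 (MT1F) and -0.003 to 0.060 (MT1X) at 6 h and -0.027 to 0.118 (MT1H) and -0.034 to 0.328 (MTF1) at 24 h. Line differences were -0.004 to 0.086 for MTF1 averaged and -0.044 to 0.173 for MT1A in untreated cells.

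Signals near background limit MT1F, and MT1G and MT1M were not well above it on any array. With 2 samples in each condition, and 1 line for each genotype, small differences could not be resolved.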

Other observations

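Within each of the 8 conditions, the log2 signal of MT2A was higher on replicate 2 than on replicate 1, by 0.15 to 0.51 with a median of 0.28. The same order held in 7 of 8 conditions for MT1B, MT1E, MT1H, MT1L and MTF1. Over all probes the replicate numbers paired the samples weakly at most, and the main fit had no term for them.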
